A study of Mus musculus with 40 samples.

Results

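Solute carrier genes encode the membrane proteins that move small molecules into, out of and within cells, and the liver messenger RNA of 245 of them was followed through 8 sex and hormone states of the mouse. A gene belonged to the group when its probe symbol began with Slc and a digit, and 4 further genes with such names are left out by the rule. The 245 genes were read by 273 probes and form a small part of the 11648 genes named on the array. Where a gene had several probes (19 genes), it was represented by the one whose standard deviation (SD) across the 40 arrays was largest. Membership rests on names alone, while this choice of probe uses a measured value, the spread over all arrays. Slc4a1ap, Slc9a3r1 and Slc9a3r2 share the naming scheme although their products, kanadaptin and a pair of scaffold proteins, are partners of carriers and not carriers.

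The livers came from 40 C57BL/6J mice on a chow diet with 4% fat, in 8 groups of 5, and were taken at 14 weeks of age after a 12 h fast. Intact females and intact males kept their gonads. The other 6 groups lost their gonads at 8 weeks (ovariectomy in females, castration in males) and from 12 weeks carried a pellet made to release over 21 days. The pellet held either placebo, 0.5 mg of estradiol (E2; stated plasma yield 300 pg/ml) or 5 mg of dihydrotestosterone (DHT, an androgen that cannot be turned into estrogen; stated yield 1 to 2 ng/ml). Gonad loss and pellet therefore differ together between intact and placebo animals. Each array compared the RNA of 1 liver, in Cy5, with a pool made of equal RNA parts of the samples, in Cy3, so every value below is a log2 ratio to that pool: 0 means the level of the pool, and values of different genes cannot be ranked by abundance. Males and females were told apart by Y-linked genes as labelled: the highest female value of Eif2s3y was -3.82 and the lowest male value 0.35. The group averages for the mean of 8 measured hepatocyte markers stayed between -0.14 and 0.05. In single livers that mean ran from -0.31 (a placebo female) to 0.19 (an intact female). Single markers were called: Ttr was 0.57 higher in intact females than in intact males. Serpina1a was lower in intact females by 0.30 and lower after castration by 0.35. Some array pairs ran against each other over all probes (28 pairs below -0.3, the lowest at -0.47), and the direction was kept because the dyes are stated.

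Liver carriers fall into a few working classes. On the blood side of the hepatocyte, carriers take up glucose, amino acids, monocarboxylates, bile acids, drugs and steroid conjugates; inside the cell, mitochondrial and endoplasmic reticulum carriers feed the urea cycle and glucose release; and heavy chains such as Slc3a2 bring amino acid exchangers to the membrane. In rodents many hepatic uptake and efflux proteins are known to differ between the sexes, in part through the sex-specific pattern of growth hormone secretion that gonadal steroids set. Each gene was put in a substrate class by its Slc family number alone, so a class can hold members with another substrate. The amino acid class, for example, holds Slc43a3, a purine nucleobase carrier. Slc4a1ap, Slc9a3r1 and Slc9a3r2, which are not carriers, were counted in the ion and pH class. By these classes, the group held 57 amino acid and peptide, 36 ion and pH, 27 sugar, 23 metal and 21 bile acid and organic ion genes. It also held 27 genes for nucleosides, vitamins and other solutes and 19 mitochondrial carrier genes. The rest were 13 anion and phosphate, 11 monocarboxylate and fatty acid and 11 nucleotide sugar genes.

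Most of these genes varied little, as most named genes did. The median SD over the 40 arrays was 0.17 on the log2 scale, beside 0.16 for all named genes. Under 0.2 lay 147 of 245 (60%, beside 65.66% of all named genes). Over 0.5 were 7 genes (2.86%, beside 2.75% of all named genes): Slc15a2, Slc34a2, Slc3a1, Slc16a1, Slc12a1, Slc16a7 and Slc15a5. A large spread did not always follow the groups. Slc15a2, a peptide carrier, had the largest SD of the 245 (1.25), yet only 10.7% of its variance lay between groups, and low livers such as -3.28 in an intact male and -3.09 in a placebo male stood beside values of 0.25 and 0.70 in the same groups. For Slc15a5 the share between groups was 80.8% and for Slc38a6 78.7%. A gene was called when its Benjamini-Hochberg adjusted p from limma, over all 23574 probes of a comparison, was under 0.05. By that measure 61 of 245 genes (24.9%, beside 20.1% of all named genes) were called in at least 1 of the 10 comparisons of 2 groups, 34 of them in exactly 1, and 184 in none. Of those 184, 172 never differed by as much as 0.5 between any compared groups, and Slc15a2 was the only gene among them with a difference of at least 1 (1.35).

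**Figure D1:**
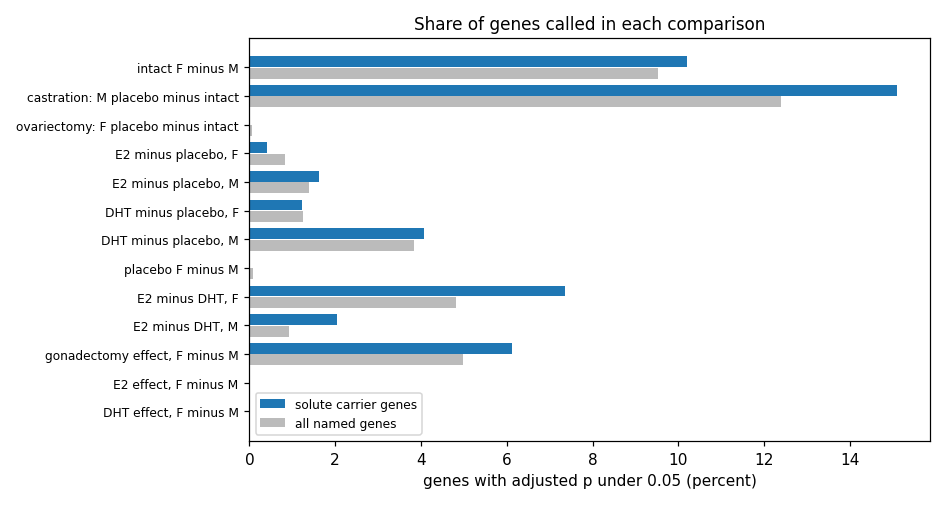
Horizontal bars give the percentage of genes with adjusted p under 0.05 in each of 13 comparisons, for the 245 solute carrier genes (blue) and for all 11648 named genes (grey). The longest blue bar is castration (15.1%), and no blue bar is seen for ovariectomy, for the sexes under placebo, or for the sex differences in the E2 and DHT effects.

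The first question was which carriers differ between female and male liver. In intact mice the 4 carriers with the smallest adjusted p were higher in males: Slc15a5 (a relative of the peptide carriers), Slc22a30 (an organic anion carrier of rodents), Slc38a6 (of the sodium-coupled neutral amino acid family) and Slc29a4 (the plasma membrane monoamine transporter). Higher in females were Slc16a7 (MCT2, a lactate and pyruvate carrier), Slc16a11 (a related monocarboxylate carrier), Slc17a1 (a phosphate and urate carrier) and Slc37a4 (which brings glucose 6-phosphate into the endoplasmic reticulum for glucose release). In all, 25 of 245 were called (10.2%), beside 9.53% of all named genes; 12 were higher in females, beside 3.93% of all named genes, and 13 lower, beside 5.60%. That share is close to the background. With quantile normalization 16 were called, 5 higher and 11 lower in females. With array weights, which give each array a weight by how well it fits its group, 60 were called (24.5%, beside 24.4% of all named genes).

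Slc15a5 lay at 0.86, 0.54, 0.79, 0.97 and 0.44 in the 5 intact males and at -0.55, -0.58, -0.16, -0.46 and -0.53 in the 5 intact females. Every male was above every female, and the female mean was 2.25-fold lower (log2 difference -1.17, SE 0.15, limma adjusted p = 7.04e-07). For Slc22a30 the intact males lay at 0.68, 0.67, 0.76, 0.40 and 0.73 and the females at -0.13, -0.30, -0.50, -0.75 and -0.37, again without overlap (log2 difference -1.06, SE 0.18, limma adjusted p = 6.64e-05). Slc38a6 measured 0.79, 0.56, 0.71, 0.16 and 0.93 in intact males against -0.13, -0.04, -0.25, -0.12 and -0.16 in females. The groups did not overlap, although male 11 came close to the females (log2 difference -0.77, SE 0.11, limma adjusted p = 2.73e-06).

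Of the genes higher in females, Slc16a7 lay at 0.36, 0.46, -0.27, -0.08 and -0.16 in females and at -0.86, -1.19, -0.68, -0.70 and -1.08 in males. All females were above all males (log2 difference 0.96, SE 0.24, limma adjusted p = 0.00602). Slc17a1 measured 0.77, 0.40, 0.18, 0.23 and -0.07 in females and -0.34, -0.36, -0.51, -0.62 and -0.40 in males (log2 difference 0.74, SE 0.17, limma adjusted p = 0.00239), and these groups did not overlap either. Slc37a4 was 0.54 higher in females (SE 0.15, limma adjusted p = 0.0161), and the groups were apart, but the call was lost with quantile normalization (adjusted p = 0.0797), with the clock index described below as a covariate (adjusted p = 0.0715) and without male 12 (adjusted p = 0.0633). Slc3a2, the heavy chain (CD98) that carries several amino acid exchangers to the membrane, differed by less but as firmly: 0.12, 0.02, 0.20, 0.18 and 0.22 in females against -0.21, -0.22, -0.26, -0.13 and -0.28 in males (log2 difference 0.37, SE 0.07, limma adjusted p = 0.000583).

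The other called genes differed by 0.14 to 0.84. Higher in intact males were Slc2a12 (a glucose carrier), Slc22a6 and Slc22a7 (organic anion carriers), Slc34a3 (a sodium phosphate carrier), Slc38a2 (a neutral amino acid carrier, -0.67), Slc49a4, Slc9a3r2 (a scaffold), Slc26a11 and Slc35e3. Higher in intact females were Slc16a11 (0.84; not called without male 12 or with quantile normalization), Slc1a6 (a glutamate carrier), Slc39a5 and Slc30a2 (zinc carriers), Slc24a1, Slc43a3 (a purine nucleobase carrier), Slc14a2 (a urea carrier) and Slc22a19 (0.14). For 4 of these genes the other probes did not follow. The calling probe of Slc35e3 gave -0.46 and its other probes 0.10 and -0.02; Slc26a11 gave -0.43 against 0.04, Slc30a2 0.38 against 0.06 and Slc14a2 0.19 against 0.04. Of the carriers by which liver is often described, Slc2a2 (GLUT2, the main hepatic glucose carrier) differed by 0.49 (limma adjusted p = 0.0978), Slc27a5 (which activates bile acids and fatty acids) by 0.17 (adjusted p = 0.401), Slc27a2 (a very long chain fatty acid enzyme) by -0.04 (adjusted p = 0.906), and Slc40a1 (ferroportin, the iron exporter) by 0.42 (adjusted p = 0.217). The 95% interval of the Slc27a2 difference ran from -0.32 to 0.24.

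The next comparison asked what removing the gonads does. Of the 13 comparisons castration had the most called carriers. Relative to the intact males, 37 of 245 genes were called in castrated males carrying placebo (15.1%, beside 12.4% of all named genes): 17 rose (6.94%, beside 5.07%) and 20 fell (8.16%, beside 7.37%). With array weights 95 were called (38.8%, beside 33.7% of all named genes). The genes that fell most were Slc15a5, Slc22a30, Slc38a6, Slc16a1 and Slc38a2, and those that rose most were Slc16a7, Slc16a11, Slc37a4, Slc2a2, Slc2a4 and Slc17a1. This comparison and the intact sex comparison use the same 5 intact males, so their values for a gene are not independent and are given side by side only. By the classes drawn from family numbers, 4 sugar genes rose and 3 fell of 27. Of 21 bile acid and organic ion genes 2 rose and 4 fell, and of 57 amino acid genes 3 rose and 3 fell. Of 11 monocarboxylate and fatty acid genes 2 rose and 1 fell, and of 19 mitochondrial genes 1 fell. Of 27 genes for nucleosides, vitamins and other solutes 2 rose and 3 fell. Of 36 ion and pH genes 1 rose and 2 fell, and of 13 anion and phosphate genes 1 rose and 2 fell. Of 11 nucleotide sugar genes 1 rose and 1 fell, and of 23 metal genes 1 rose.

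Some markers of other liver cells also differed after castration, where 5.07% of all named genes rose and 7.37% fell. Of 9 measured endothelial markers 3 rose (Tek, Flt1 and Tie1), and their mean log2 ratio ran from -0.14 to 0.05 in intact males and from 0.03 to 0.25 in castrated males with placebo. Of 10 measured T and B cell markers 2 rose (Cd3d and Cd2), with a mean from -0.20 to -0.03 before and from 0.01 to 0.17 after. Of 8 measured stellate cell markers 2 rose (Reln and Acta2) and Col1a2 fell. The 8 measured Kupffer cell markers had a median difference of 0.10. Other lists held calls as well. Of 9 measured erythroid markers Klf1 rose (0.73) and Alas2 fell (-1.41). Of 7 measured kidney tubule markers Aqp1 rose (0.36) and Lrp2 fell (-0.45). Of 4 measured adipocyte markers Lep fell (-0.40). The part of other cells in the carrier differences was not tested.

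**Figure D2:**
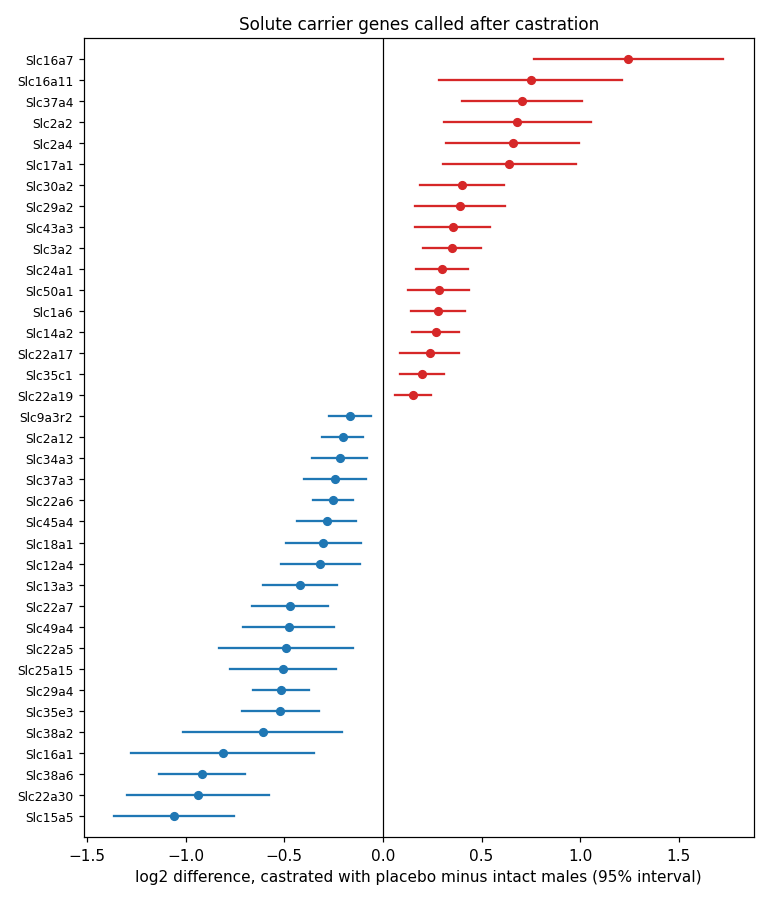
Points give the log2 difference, castrated males with placebo minus intact males, of the 37 called solute carrier genes with lines for the 95% interval; blue genes fell and red genes rose. The differences run from -1.06 for Slc15a5 to 1.24 for Slc16a7.

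After castration Slc15a5 lay at -0.71, -0.33, -0.08, -0.42 and -0.15, below all intact males. Its mean was 2.08-fold lower (log2 difference -1.06, SE 0.15, limma adjusted p = 3.73e-06). Slc38a6 fell to -0.46, -0.25, -0.36, -0.18 and -0.19, also without overlap (log2 difference -0.92, SE 0.11, limma adjusted p = 1.03e-07, the smallest of the 245 genes). Slc22a30 fell to -0.82, -0.29, -0.49, -0.03 and 0.17, the last of these still under the lowest intact male (log2 difference -0.94, SE 0.18, limma adjusted p = 0.000311). The smaller falls included Slc29a4 (-0.52), Slc25a15 (the ornithine carrier of the urea cycle, -0.51), Slc22a5 (the carnitine carrier, -0.49), Slc22a7 (-0.47), Slc13a3 (a dicarboxylate carrier, -0.42) and Slc12a4 (a potassium chloride cotransporter, -0.32).

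Slc16a7 rose to 0.16, 0.18, 0.08, 0.49 and 0.79, a 2.37-fold higher mean without overlap with intact males (log2 difference 1.24, SE 0.24, limma adjusted p = 0.000334). Slc37a4 rose from -0.37, -0.26, -0.57, -0.66 and -0.83 to 0.29, 0.13, -0.04, 0.42 and 0.01 (log2 difference 0.70, SE 0.15, limma adjusted p = 0.0012). Slc2a4, the insulin-responsive glucose carrier best known from muscle and fat, went from -0.41, -0.73, -0.41, -0.12 and -0.54 to -0.06, 0.13, -0.06, 0.09 and 0.98. The groups were apart (log2 difference 0.66, SE 0.17, limma adjusted p = 0.00683), male 28 carried the highest value, and the call was lost when only these groups were fitted. GLUT2 (Slc2a2) was 0.68 higher after castration (SE 0.18, limma adjusted p = 0.011), with overlap between the groups, and its call was lost with the clock index as a covariate, where the difference was 0.36. Slc3a2 rose to 0.22, 0.16, 0.10, 0.10 and 0.05 (log2 difference 0.35, SE 0.07, limma adjusted p = 0.000966). Slc16a11 was 0.75 higher (limma adjusted p = 0.026), and it was not called without intact male 8, 10 or 12 or placebo male 25 or 26.

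Ovariectomy gave a different picture: 0 of 245 genes were called by limma (0.0601% of all named genes were), and 19 had an unadjusted p under 0.05 (7.76%, beside 5.56% of all named genes). The smallest adjusted p was 0.231, for Slc41a1, and the 95% interval lay inside -0.5 to 0.5 for 206 of 245 genes. Whether the gonad effect differed between the sexes was tested directly, as the effect in females minus that in males. For 15 of 245 genes it did (6.12%, beside 4.97% of all named genes): 9 with a higher (3.67%, beside 3.12%) and 6 with a lower value in females (2.45%, beside 1.85%). The size was 1.16 for Slc15a5 (SE 0.21, limma adjusted p = 0.000731), 1.10 for Slc22a30, 0.82 for Slc38a6, 0.50 for Slc29a4, -0.97 for Slc37a4 and -0.83 for Slc17a1. With array weights 33 genes were called (13.5%, beside 13.6% of all named genes). With quantile normalization 9 genes were called, 7 higher and 2 lower, and Slc3a2 (adjusted p = 0.11) and Slc17a1 (adjusted p = 0.06) were not among them. Once the gonads were gone, females and males with placebo pellets differed in 0 of 245 genes by limma (0.0773% of all named genes; 17 genes, or 6.94%, at an unadjusted p under 0.05, beside 5.70%). Slc15a5, for example, differed by -0.02 with a 95% interval from -0.32 to 0.29.

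**Figure D3:**
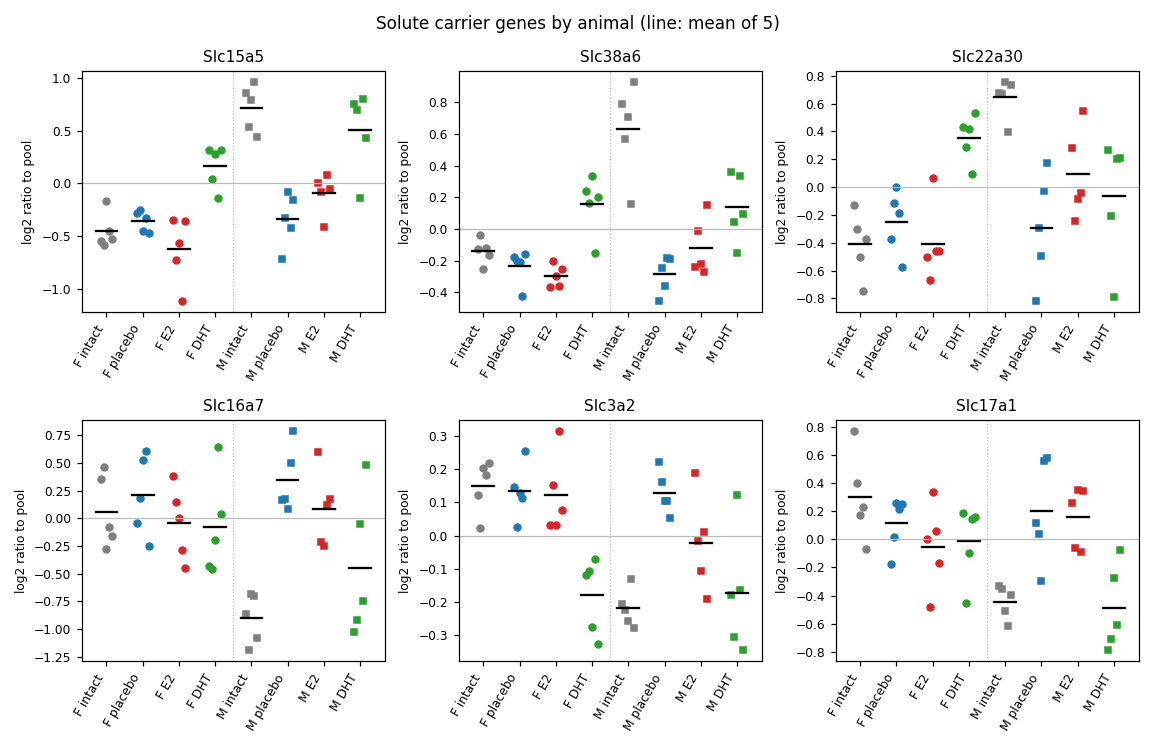
Each point is the log2 ratio to the pool in 1 liver and each line the mean of 5, for 6 genes in 8 groups (circles female, squares male). Intact males have the highest mean of Slc15a5, Slc38a6 and Slc22a30 and the lowest of Slc16a7, and the 5 placebo females and 5 placebo males overlap for all 6 genes.

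The genes that fell or rose after castration were set against their promoters as RefSeq gives them for build GRCm38.p6, from 250 bases before to 50 after each start. Of the 245 genes 193 had such a window. The letters TTCNNNGAA, the form bound by STAT5 (the factor that carries the growth hormone signal in liver), were searched on both strands (the pattern reads the same on both), and its matches in the windows of called genes overlapped no other motif searched. They occurred in 8.30% of all 32851 windows, in 4.74% of 253 windows of solute carrier genes, in 0 of 20 windows of genes that fell and in 2 of 17 windows of genes that rose, those of Slc17a1 and Slc22a19. The palindromic estrogen response element and the palindromic androgen or glucocorticoid response element, both searched in full on both strands, were in 0 of the 253 windows (0.07% and 0.00913% of all windows), and the D-box core TTATGCAA was in 1 (0.743% of all windows). The 250 bases before the start are shown for the genes that fell most, Slc15a5 and Slc22a30, and for the genes that rose and hold a match, Slc22a19 and Slc17a1 (the second of its windows); each is read 5′ to 3′ on the gene's strand, and capitals mark TTCNNNGAA. The windows are chr6:138079917-138080166 (minus strand), chr19:8405106-8405355 (minus), chr19:7711311-7711560 (minus) and chr13:23870023-23870272 (plus).
Slc15a5: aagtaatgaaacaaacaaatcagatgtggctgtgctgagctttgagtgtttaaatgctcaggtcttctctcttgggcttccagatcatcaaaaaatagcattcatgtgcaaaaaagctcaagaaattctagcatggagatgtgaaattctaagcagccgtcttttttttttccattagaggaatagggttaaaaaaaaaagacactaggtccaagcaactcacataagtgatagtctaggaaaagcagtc
Slc22a30: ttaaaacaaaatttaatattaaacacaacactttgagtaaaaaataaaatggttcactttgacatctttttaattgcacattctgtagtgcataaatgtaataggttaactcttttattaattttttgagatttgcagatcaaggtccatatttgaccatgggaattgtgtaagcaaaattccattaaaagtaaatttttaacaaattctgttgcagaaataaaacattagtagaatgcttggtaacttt
Slc22a19: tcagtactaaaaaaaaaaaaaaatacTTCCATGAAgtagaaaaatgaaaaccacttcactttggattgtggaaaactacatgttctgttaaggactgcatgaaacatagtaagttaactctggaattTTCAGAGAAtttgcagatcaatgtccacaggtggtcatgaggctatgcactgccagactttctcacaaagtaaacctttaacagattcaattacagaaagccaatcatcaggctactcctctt
Slc17a1: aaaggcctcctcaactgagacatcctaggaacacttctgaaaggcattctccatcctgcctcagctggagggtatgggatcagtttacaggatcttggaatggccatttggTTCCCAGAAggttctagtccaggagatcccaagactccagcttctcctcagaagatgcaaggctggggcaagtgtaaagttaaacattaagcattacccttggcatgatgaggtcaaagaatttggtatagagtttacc
The first pair holds no capitals, so these letters are not in those windows. Counted from the start, the matches begin at -224 and -123 in Slc22a19 and at -139 in Slc17a1. A match describes letters and no binding was measured here.

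Slc22a19, Slc22a29 and Slc22a30 lie in a single row of neighbouring organic anion carrier genes on chromosome 19, and they did not move together. While Slc22a30 fell by 0.94 after castration, Slc22a19 rose by 0.15 (SE 0.05, limma adjusted p = 0.0234) and Slc22a29 differed by 0.17 (adjusted p = 0.455, 95% interval -0.12 to 0.46). In intact females against males the values were -1.06, 0.14 and 0.09 in the same order. Genes of this row resemble each other in sequence, and whether a probe also picks up a neighbour's transcript was not tested.

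Giving back DHT to castrated males tested which carriers answer an androgen. Slc15a5 rose most, and Slc38a6 rose with it. Slc16a1 (MCT1, the widespread lactate and pyruvate carrier), Slc17a1 and Slc3a2 fell. In all 10 of 245 genes were called (4.08%, beside 3.84% of all named genes), 6 higher (2.45%, beside 2.09%) and 4 lower (1.63%, beside 1.74%). The castrated placebo males are shared with the castration comparison, so the opposite signs of a gene in the 2 comparisons are not independent. The higher genes were Slc15a5, Slc9a3r1 (the scaffold NHERF1), Slc41a1 (a magnesium carrier), Slc25a37 (mitoferrin, which brings iron into mitochondria), Slc39a11 (a zinc carrier) and Slc38a6; the lower ones were Slc16a1, Slc17a1, Slc3a2 and Slc14a2. The number called was 4 when only these groups were fitted, 5 with the clock index as a covariate, 16 without DHT male 61, and 6 each without placebo male 27, DHT male 59 or DHT male 62; with array weights it was 50 (20.4%, beside 17.2% of all named genes).

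Under DHT the 5 castrated males had Slc15a5 at 0.76, 0.70, -0.14, 0.80 and 0.44. Male 61 stayed within the placebo range, and the others lay above it (log2 difference 0.85, SE 0.15, limma adjusted p = 0.000701). For Slc9a3r1 all 5 DHT males (0.74, 0.67, 0.34, 0.74 and 0.73) lay above all 5 placebo males (-0.16, 0.10, 0.09, -0.15 and -0.23), with a log2 difference of 0.72 (SE 0.16, limma adjusted p = 0.00591). With the clock index as a covariate that difference was 0.43 (adjusted p = 0.202). The index did not overlap between placebo and DHT males, so that fit cannot separate it from DHT. Slc38a6 lay at 0.36, 0.05, -0.15, 0.34 and 0.09 and did not overlap with placebo (log2 difference 0.42, SE 0.11, limma adjusted p = 0.0197), a call that was lost when only these groups were fitted (adjusted p = 0.0747), with the clock index (adjusted p = 0.0576), and without placebo male 24, DHT male 59 or DHT male 62. Slc22a30 did not follow: it lay at 0.27, -0.21, -0.79, 0.20 and 0.21, a difference of 0.23 (limma adjusted p = 0.648). The other probes of 2 called genes stayed near 0, at -0.01 for Slc25a37 (calling probe 0.52) and at 0.01 and -0.04 for Slc39a11 (calling probe 0.44), and the other probe of Slc14a2 gave 0.18 where the calling probe gave -0.23.

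In ovariectomized females DHT left 3 of 245 genes called (1.22%, beside 1.25% of all named genes), 1 higher (0.687% of all named genes) and 2 lower (0.567%). With array weights 16 were called (6.53%, beside 6.32% of all named genes). Slc19a1, the reduced folate carrier, rose from -0.25, -0.28, -0.57, -0.33 and -0.23 under placebo to 0.52, 0.58, 0.01, 0.10 and 0.24, with all DHT females above all placebo females (log2 difference 0.62, SE 0.15, limma adjusted p = 0.0323). Slc3a2 fell from 0.15, 0.03, 0.13, 0.11 and 0.26 to -0.12, -0.11, -0.28, -0.07 and -0.33, without overlap (log2 difference -0.31, SE 0.07, limma adjusted p = 0.0218). Slc1a4, a neutral amino acid carrier, fell as well (log2 difference -0.36, SE 0.09, limma adjusted p = 0.0289). With the clock index as a covariate Slc19a1 (adjusted p = 0.0973) and Slc3a2 (adjusted p = 0.0745) were not called. That index did not overlap between placebo and DHT females either. The count was 8 when only these groups were fitted, 10 with quantile normalization (6 higher, 4 lower), 6 without DHT female 53, 0 without DHT female 54 and 1 without any of placebo females 16, 18, 19 and 20 or DHT females 50, 51 and 52.

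Across all 8 groups Slc3a2 kept a narrow order. Its means were -0.22 in intact males, -0.18 in females with DHT and -0.17 in males with DHT, and 0.15 in intact females, 0.13 in placebo females, 0.13 in placebo males and 0.12 in females with E2. Males with E2 lay between, at -0.02. Within the lower 3 groups, and within the upper 4, the animals' values overlapped. The DHT effect on it was -0.31 in females and -0.30 in males (difference between the sexes -0.01, 95% interval -0.22 to 0.20). For the male-high genes in females, DHT gave differences that did not pass: 0.52 for Slc15a5 (limma adjusted p = 0.0805), 0.60 for Slc22a30 (adjusted p = 0.0927) and 0.39 for Slc38a6 (adjusted p = 0.0589), with DHT and placebo females apart for each. These groups were apart for 18 of 245 genes (7.35%, beside 5.2% of all named genes). For 0 of 245 genes did the DHT effect differ between the sexes by limma (0% of all named genes; 12 genes, or 4.90%, at an unadjusted p under 0.05, beside 7.76%); with array weights 7 were called (2.86%, beside 3.37%).

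The effect of estradiol was read against placebo. In ovariectomized females 1 of 245 genes was called (0.408%, beside 0.824% of all named genes in either direction and 0.438% higher): Slc10a6, a sodium-dependent carrier of sulfated steroids. It lay at -0.32, -0.06, -0.61, -0.53 and -0.36 under placebo and at 0.43, -0.01, 0.26, 0.55 and 0.50 under E2. Every E2 female was above every placebo female, and the mean was 1.65-fold higher (log2 difference 0.72, SE 0.13, limma adjusted p = 0.00269). In castrated males the same gene measured -0.27, -0.10, -0.07, 0.12 and -0.07 under placebo and 0.04, 0.28, 0.71, 0.77 and 0.17 under E2, with some overlap, and missed the threshold (log2 difference 0.47, SE 0.13, limma adjusted p = 0.0508). The E2 effect on Slc10a6 in females minus that in males was 0.25 (95% interval -0.11 to 0.61). Leaving out single females moved the number called to 8 (without E2 female 33) and 14 (without E2 female 34), quantile normalization gave 2, and array weights gave 15 (6.12%, beside 5.67% of all named genes).

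In castrated males E2 left 4 of 245 genes called (1.63%, beside 1.40% of all named genes), 1 higher (0.859% of all named genes) and 3 lower (0.541%; with quantile normalization 3 and 2, with median centring 2 and 2). With array weights 14 were called (5.71%, beside 3.83% of all named genes). Slc24a1, a sodium, calcium and potassium exchanger known from photoreceptors, fell from 0.11, 0.12, 0.15, 0.17 and 0.16 to -0.05, -0.47, -0.09, -0.20 and -0.27 (log2 difference -0.36, SE 0.06, limma adjusted p = 0.00349). Slc25a47, a mitochondrial carrier found mainly in liver, fell from 0.42, 0.04, 0.03, -0.27 and 0.06 to -0.44, -0.77, -0.53, -0.52 and -0.54 (log2 difference -0.62, SE 0.14, limma adjusted p = 0.0228). For both genes the groups did not overlap. Slc43a3 fell by 0.37 (limma adjusted p = 0.0403) and Slc26a4 (pendrin, an anion exchanger) rose by 0.80 (limma adjusted p = 0.0463). All 4 calls were lost when only these groups were fitted (0 called), those of Slc25a47 and Slc26a4 also with the clock index as a covariate, and the number called fell to 1 without placebo male 24 or E2 male 46 and to 2 without placebo male 25 or 26 or E2 male 43 or 45. For 0 of 245 genes did the E2 effect differ between the sexes by limma (0% of all named genes; 12 genes, or 4.90%, at an unadjusted p under 0.05, beside 4.51%). Slc26a4 had the smallest adjusted p there (limma adjusted p = 0.778). Its E2 effect in females minus that in males was -1.19 (95% interval -1.80 to -0.59).

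The estradiol and androgen states were also set directly against each other. In females 18 of 245 genes were called (7.35%, beside 4.82% of all named genes), 13 higher with E2 (5.31%, beside 3.00%) and 5 lower (2.04%, beside 1.81%). With array weights 45 genes were called in females (18.4%, beside 15.3% of all named genes) and 36 in males (14.7%, beside 8.40%). Slc10a6 was higher with E2 (log2 difference 0.66, SE 0.13, limma adjusted p = 0.00192), and Slc15a5 (-0.79, adjusted p = 0.00194), Slc22a30 (-0.76, adjusted p = 0.0108), Slc38a6 (-0.46, adjusted p = 0.0107) and Slc2a5 (GLUT5, the fructose carrier; -0.82, adjusted p = 0.015) were lower. In males 5 of 245 were called (2.04%, beside 0.919%), 3 higher (0.524% of all named genes) and 2 lower (0.395%; 3 and 1 with median centring): Slc10a6 (0.54, limma adjusted p = 0.0274), Slc3a1 (rBAT, the heavy chain of the cystine carrier; 1.65, adjusted p = 0.0273) and Slc29a1 (a nucleoside carrier; 0.51, adjusted p = 0.0475) were higher and Slc15a5 (-0.61, adjusted p = 0.0435) and Slc2a5 (-0.81, adjusted p = 0.0454) lower. With the clock index as a covariate 0 genes were called in females and 2 in males, neither of them among the 5. In females the index ran from -0.40 to 0.17 with E2 and from 0.40 to 0.79 with DHT. It did not overlap there, so that fit cannot separate index from hormone. With only the compared groups fitted 6 were called in females and 1 in males.

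Slc2a5 in males lay at -0.10, -0.29, -0.15, -0.55 and -0.24 with E2 and at 0.27, 0.78, 0.68, 0.44 and 0.56 with DHT, 2 ranges that did not touch. In females with E2 it lay at -0.26, 0.35, -0.78, -1.42 and -0.50, and female 34 reached into the DHT range of 0.08 to 0.62. Slc3a1 in males with E2 measured -0.41, 1.26, 1.77, -0.15 and 0.21, against -1.51 to -0.41 (median -1.29) with DHT, so male 63 alone among the DHT males reached the E2 range. It was the most scattered of the genes called there, with an SD of 0.94 among the E2 males. The number called in males was 8 without E2 male 41, 13 without DHT male 63, 1 without E2 male 43, 2 without E2 male 46 and 0 without E2 male 44 or DHT male 59, 60 or 62.

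**Figure D4:**
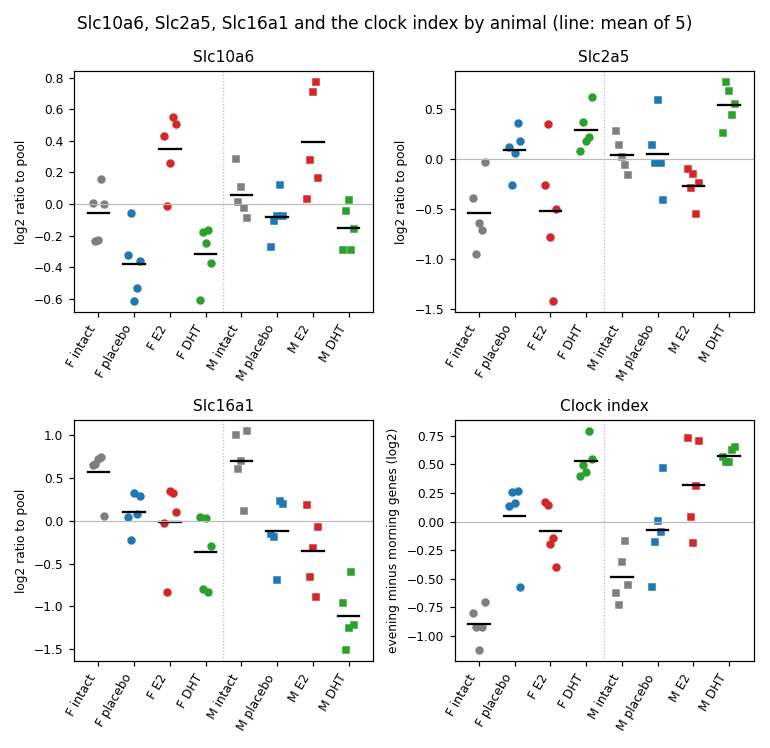
Each point is 1 liver and each line the mean of 5, for the log2 ratios of Slc10a6, Slc2a5 and Slc16a1 and for a clock index (mean of 6 evening clock genes minus mean of 3 morning ones). The means of Slc10a6 are highest in the E2 groups of each sex, Slc2a5 is high in DHT males, and Slc16a1 runs from high in intact livers to low in DHT males while the clock index runs from low to high.

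Among comparisons within a sex, Slc16a1 was called only in males, after castration and with DHT. In males it measured 1.00, 0.61, 0.70, 0.11 and 1.05 when intact, -0.15, -0.18, -0.69, 0.24 and 0.20 with placebo and -0.96, -1.51, -1.25, -0.60 and -1.21 with DHT. Castration lowered it by 0.81 (SE 0.23, limma adjusted p = 0.0149) and DHT lowered it by a further 0.99 (SE 0.23, limma adjusted p = 0.0102), so that it was lower after both the loss and the return of androgen. Neighbouring groups overlapped in each step. In females the means were 0.57 intact, 0.11 with placebo, -0.02 with E2 and -0.37 with DHT. No comparison between female groups called the gene. A clock index was formed from the mean log2 ratio of 6 genes that peak towards evening in liver (Dbp, Nr1d1 and others). From it was subtracted the mean of 3 that peak towards morning (Arntl, Npas2 and Clock). From intact to placebo to DHT the mean of the index rose in each sex while the mean of Slc16a1 fell. From placebo to E2 in females both fell. The index means were -0.89, 0.05, -0.08 and 0.53 in females for intact, placebo, E2 and DHT. In males they were -0.48, -0.07, 0.32 and 0.58 in the same order. No label or note used here gives the hour at which livers were taken. With this index as a covariate the DHT difference of Slc16a1 in males was -0.87 (adjusted p = 0.0944) and its castration difference stayed called; with quantile normalization the castration difference was -0.57 (adjusted p = 0.103), and without intact male 8, intact male 12 or placebo male 26 it was not called. In males the index ran from -0.57 to 0.47 with placebo and from 0.52 to 0.65 with DHT, without overlap. A fit with it as a covariate therefore cannot separate it from DHT there. The part of the index in these results was not tested further.

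Females with E2 were not alike in another set of carriers. Slc34a2, a sodium phosphate carrier known from intestine and lung, measured -0.60, -1.60, 2.29, 1.41 and 2.05 in them, against -1.15, -1.59, -0.84, -1.01 and -1.50 with DHT (log2 difference 1.93, SE 0.48, limma adjusted p = 0.0178). Females 35, 36 and 37 were high and females 33 and 34 lay in or near the DHT range. Slc7a7, the light chain of a cationic amino acid exchanger, lay at -0.27, -0.33, 1.34, 1.52 and 0.79 and split the animals in the same way (log2 difference 0.94, SE 0.22, limma adjusted p = 0.00944). Slc15a3, a lysosomal peptide and histidine carrier of immune cells, lay at -0.16, -0.11, 0.56, 1.31 and 0.47, above the DHT females at -0.40 to -0.18 (log2 difference 0.73, SE 0.16, limma adjusted p = 0.00524). Slc11a1 (NRAMP1, a metal carrier of the macrophage phagosome) was 0.68 higher (limma adjusted p = 0.00925), Slc9a9 (an endosomal proton exchanger) 0.67, Slc7a8 (a neutral amino acid exchanger) 0.78, Slc5a11 (an inositol carrier) 0.46, Slc16a9 0.38, Slc26a6 0.38, Slc30a2 0.36, Slc1a5 (the glutamine carrier ASCT2) 0.35 and Slc3a2 0.30. The other probes of Slc9a9 (-0.05), Slc16a9 (0.12) and Slc30a2 (0.04) did not follow. The fifth gene lower with E2 was Slc9a3r1 (-0.59, limma adjusted p = 0.0247).

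Markers of Kupffer cells, the macrophages of the liver, moved in these same animals. The 8 measured markers were Clec4f, Cd5l, Vsig4, Marco, Adgre1, Csf1r, Timd4 and Cd68. In females 7 were called higher with E2 than with DHT (3.00% of all named genes were). The median difference was 1.18 beside 0.00 for all named genes. Against placebo in females 0 of the 8 were called with E2 (0.824% of all named genes were) and 0 with DHT (1.25% were). The median differences of the 8 markers there were 0.88 with E2 and -0.41 with DHT. Their mean log2 ratio was -0.23, -0.32, 1.19, 1.78 and 0.47 in E2 females 33 to 37, and ran from -0.89 to -0.31 in DHT females and from -0.55 to 0.08 in placebo females. In males 0 of the 8 were called by limma between E2 and DHT, with a median difference of 0.32. Other lists also held calls between E2 and DHT females, where 3.00% of all named genes were higher and 1.81% lower. Of 4 measured adipocyte markers Fabp4 was higher (2.03), and of 10 T and B cell markers Cd79b was (0.66). Of 9 erythroid markers Alas2 was lower (-1.05). Fabp4 was also called higher with E2 than with placebo in females (2.04). More Kupffer cells and more RNA of their markers per cell cannot be told apart in whole liver. The part of these or other cells in the carrier differences was not tested. Without E2 female 36 the number called was 7, and without E2 female 34 it was 28. Slc34a2 was not called without E2 female 35, 36 or 37 or DHT female 54 (adjusted p from 0.0513 to 0.088), and Slc7a7 (adjusted p = 0.0674) and Slc11a1 (adjusted p = 0.0572) were not called without female 36. When only the E2 and DHT females were fitted, with their own spread, the adjusted p was 0.198 for Slc34a2, 0.216 for Slc7a7, 0.17 for Slc15a3 and 0.187 for Slc11a1.

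**Figure D5:**
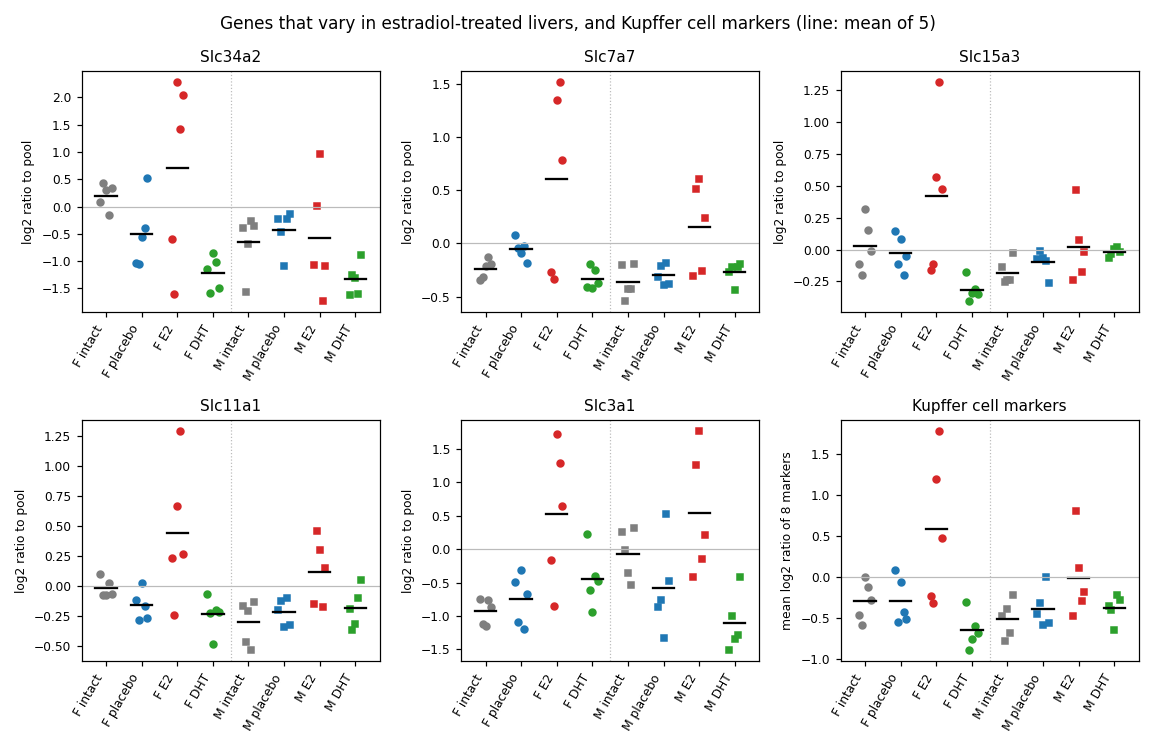
Each point is 1 liver and each line the mean of 5, for the log2 ratios of 5 genes and for the mean log2 ratio of 8 Kupffer cell markers. Among E2 females, 3 livers stand high for Slc34a2, Slc7a7 and Slc3a1 and for the marker mean, and the other 2 do not.

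Other transporter families of the liver give a scale for these sizes. Of 13 measured Slco organic anion carriers, which are named outside the Slc scheme, 2 rose and 1 fell after castration (5.07% of all named genes rose and 7.37% fell): Slco1a4 (1.51) and Slco2b1 (0.36) rose and Slco1a1 fell by 1.89. Of 17 measured ABC transporters 2 rose and 4 fell, with Abcd2 at 1.85, Abcb1a (a drug exporter) at 1.74 and Abcg2 (a urate and drug exporter) at -1.52. DHT raised Slco1a1 in females by 1.22 (limma adjusted p = 0.0152) and in males by 1.16 (adjusted p = 0.0107). Among the 245 solute carrier genes, which do not include the 4 left out by the rule, the castration difference ran from -1.06 to 1.24, with a median of 0.04 beside 0.02 for all named genes.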

How the data were processed

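RNA of 40 livers was hybridised to 2-colour arrays, 1 array per animal. The deposited value table holds log10 ratios of liver over pool for 23574 probes, with 0 missing values; the authors' background correction, normalization and centring are not stated in the labels, and scanner files were not analysed here. Values were multiplied by 3.32 to give log2 ratios. Array medians ran from -0.0135 to 0.0109 in log10 units, no solute carrier value lay at the limit of 2 (a 100-fold ratio), and precision is set by the number of arrays. Gene names came from the platform annotation, with 13665 probes of 1 symbol, 48 of several and 9861 of none; 243 of the 245 genes had their Entrez identifier in RefSeq. All probes entered 1 limma fit of 8 group means (version 3.58.1, R 4.3.3, 32 residual degrees of freedom), with 13 contrasts, two-sided tests and Benjamini-Hochberg adjustment over all probes within a contrast. It was tested on simulated data. Genes were named by rule: those called, up to 12 in each direction per comparison, up to 3 per substrate class, and a fixed set of liver genes. Alternatives were quantile normalization, median centring, fitting only the groups compared, array weights, the clock index as a covariate, the mean of a gene's probes, leaving out probes at the limits, and leaving out each animal. The genes, substrate classes, marker lists and tests were chosen with earlier results of these data known. The labels give no batch, slide or date.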

Additional observations from a re-analysis of the deposited data

Results flagged for a closer look

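In 18 of the genes described above, each of the 8 groups (144 in all) was examined for an animal far from the other 4. Dixon's test found 9, where chance gives about 1 in 20 groups, so the number is not far from chance. The 18 were called genes whose compared groups did not overlap, up to 3 in each direction per comparison. They were thus chosen in part on spread within groups in these same data. Intact female 3 stood high for Slc1a4 (0.47, others 0.01 to 0.12) and low for Slc25a47 (0.11, others 0.29 to 0.31). Intact male 11 stood low for Slc22a30 (0.40, others 0.67 to 0.76) and high for Slc9a3r1 (0.51, others -0.60 to -0.29). DHT male 61 was low for Slc9a3r1 (0.34, others 0.67 to 0.74), placebo male 28 was high for Slc2a4 (0.98, others -0.06 to 0.13), and placebo female 19 was low for Slc38a6 (-0.43, others -0.21 to -0.16). E2 female 35 was high for Slc22a30 (0.06, others -0.67 to -0.46), and DHT female 53 was high for Slc24a1 (0.03, others -0.19 to -0.13).

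For 15 genes the effect of gonad loss differed between the sexes by the test of the difference itself. The effect in females minus that in males was 1.16 for Slc15a5, 1.10 for Slc22a30, 0.82 for Slc38a6, 0.62 for Slc35e3, 0.57 for Slc22a7, 0.54 for Slc26a11, 0.50 for Slc29a4, 0.37 for Slc45a4 and 0.30 for Slc22a6. It was -0.97 for Slc37a4, -0.83 for Slc17a1, -0.45 for Slc43a3, -0.38 for Slc14a2, -0.37 for Slc24a1 and -0.36 for Slc3a2. The other probes gave -0.12 and -0.05 for Slc35e3, -0.07 for Slc26a11, -0.08 for Slc45a4 and -0.03 for Slc14a2.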

How the results depend on the processing

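None of the called differences changed sign under the alternatives run. Array weights raised the number called most, to 60 between intact sexes, 95 for castration, 15 (females) and 14 (males) for E2, 16 and 50 for DHT, 45 and 36 for E2 against DHT, 33 for the sex difference in the gonad effect and 7 for that in the DHT effect. Quantile normalization gave 16 between intact sexes, 2 for E2 in females, 10 for DHT in females and 9 for the sex difference in the gonad effect. Fitting only the groups compared gave 0 for E2 in males, 8 and 4 for DHT in females and males, and 6 and 1 for E2 against DHT. The clock index as a covariate gave 5 for DHT in males and 0 and 2 for E2 against DHT in females and males. Between placebo and DHT livers of either sex, and between E2 and DHT females, the clock index did not overlap. There it cannot be separated from treatment. The cause of these moves was not tested. Leaving out each animal gave 20 to 32 between intact sexes, 27 to 46 for castration, 1 to 14 and 1 to 6 for E2 in females and males, 0 to 6 and 6 to 16 for DHT, 7 to 28 and 0 to 13 for E2 against DHT, 10 to 18 for the sex difference in the gonad effect, and 0 for the other comparisons. Of the genes called, 18 of 25 (intact sexes), 24 of 37 (castration), 10 of 15 (sex difference in the gonad effect), 7 of 18 and 0 of 5 (E2 against DHT), 4 of 10 (DHT in males), 0 of 3 (DHT in females), 1 of 1 and 1 of 4 (E2) were called without each animal. Under all the other alternatives, 10 of 25 (intact sexes), 17 of 37 (castration) and 7 of 15 (sex difference in the gonad effect) stayed called. So did 0 of 18 and 0 of 5 (E2 against DHT), 1 of 10 (DHT in males) and 1 of 3 (DHT in females). For E2 in females and males it was 1 of 1 and 0 of 4. No paired analysis was possible because the groups share no animal numbers.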
